A study of Rattus norvegicus with 24 samples.

Results

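The genes described here encode translation initiation factors and aminoacyl-tRNA synthetases, as measured in rat liver after the bile duct and hepatocyte toxicant ANIT (alpha-naphthylisothiocyanate) or its vehicle. They were chosen by symbol among probe sets that name 1 gene: symbols of the Eif families, and symbols of synthetases written as an amino acid letter followed by ars, with Eprs1, Farsa and Farsb. The rule found 78 of 13438 genes, 49 initiation factor genes and 29 synthetase genes. Of the synthetases, 17 are cytosolic and 12 are mitochondrial (those whose symbol ends in 2). Where a gene had several such probe sets, the brightest on average stands for it.

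Translation begins when initiation factors bring the initiator tRNA, the small ribosomal subunit and the capped mRNA together. Stress kinases slow this step by phosphorylating the alpha subunit of eIF2, which lowers general protein synthesis and favours translation of the transcription factor ATF4 in the integrated stress response, and mTORC1 sets the availability of the cap-binding protein eIF4E through the 4E-binding proteins. Aminoacyl-tRNA synthetases load amino acids onto their tRNAs, with separate enzymes for cytosol and mitochondria in most cases, and genes of cytosolic synthetases are known targets of ATF4. The liver makes most plasma proteins, so its demand on this machinery is high.

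The 4 groups held 6 male Sprague Dawley rats each, aged 8 weeks. Rats received by stomach tube 50 mg/kg ANIT in corn oil, or corn oil alone, once and at 10 ml/kg. The groups were ANIT 24 h, vehicle 24 h, ANIT 120 h and vehicle 120 h, named by the time between dose and necropsy. The labels call 24 h the peak of liver injury and 120 h its resolution. What all 4 groups shared was an overnight fast of about 18 h before necropsy, an intraperitoneal injection of 100 mg/kg BrdU about 2 h before it, and killing with CO2. RNA came from whole liver tissue, 1 rat per array, and values are log2 expression values. A change is the ANIT mean minus the vehicle mean on this log2 scale, and each one carries the standard error of the fit (6 arrays a group). A gene counts as called where limma's p, adjusted by Benjamini-Hochberg across the 13438 genes, was under 0.05.

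The arrays differed in ways that moved with these genes. Array SDs ran from 1.84 to 2.09, and the mean level of 9 spiked hybridisation controls from 10.5 to 11.7. After group means were removed, the mean of the initiation factor genes had a Pearson r of -0.95 with the control level over 24 arrays, that of the cytosolic synthetases -0.85 and that of the mitochondrial synthetases -0.81, as a description of values that come from the same arrays. At 24 h the control level had a median of 10.7 in ANIT rats (10.6 to 11.2) and 11.2 in vehicle rats (10.6 to 11.7; exact permutation p = 0.091, two-sided). Beta-actin and GAPDH controls have probes at both ends of the transcript, as a gauge of RNA integrity, and their ratios went opposite ways. The beta-actin control probes gave a log2 3'/5' ratio of 2.98 to 3.18 in ANIT rats and 2.77 to 2.91 in vehicle rats at 24 h, with no overlap (exact permutation p = 0.0022, the smallest that 6 against 6 allows). Actin ratio and treatment cannot be told apart at that time. The GAPDH ratio was lower with ANIT, at 1.55 to 1.66 in ANIT rats and 1.62 to 1.82 in vehicle rats at 24 h, which overlapped (exact permutation p = 0.048). At 120 h the actin ratio was 2.48 to 2.93 in ANIT rats and 2.76 to 2.98 in vehicle rats (exact permutation p = 0.37), and the GAPDH ratio 1.61 to 1.78 in ANIT rats and 1.65 to 1.75 in vehicle rats (exact permutation p = 0.56). Hepatocyte markers such as Alb and Ttr were among the brightest probe sets, and 1 of 7 was called at 24 h (Hnf4a, 0.31 ± 0.09). The other 6 were at -0.22 to -0.00086 and not called, and for 1 of them, Cps1, every ANIT rat lay below every vehicle rat. Of 5 neutrophil markers, S100a8 (1.82) and S100a9 (0.87) were called higher at 24 h and the other 3 were at -0.07 to 0.03. The log2 of the summed list was 8.31 to 9.17 in ANIT rats and 7.03 to 8.30 in vehicle rats. Of 6 macrophage markers, Lyz2 and Cd163 were called higher, with sums of 11.1 to 11.4 in ANIT rats and 10.8 to 11.1 in vehicle rats. Further markers were called lower at 24 h, 2 of 6 for lymphocytes (Cd8a, Cd79b), 2 of 7 for proliferation (Mcm2, Ccnb1), 1 of 7 for stellate cells (Lrat, -1.25 ± 0.17) and 2 of 5 for endothelium (Kdr, Stab2), where Lyve1 was higher. No cholangiocyte marker was called at 24 h. At 120 h 2 of 6 cholangiocyte markers (Krt19, 0.73 ± 0.12, and Cftr, 0.49 ± 0.12) and the macrophage marker Cd163 (0.43 ± 0.10) were called higher, and no marker was called lower. No marker was at 0, since RMA values have none, and the part of other cell types in the results below was not tested. In whole tissue, fewer cells of a type and less RNA per cell cannot be told apart.

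At 24 h most of the cytosolic tRNA synthetases rose, a smaller share of the initiation factors did, and the mitochondrial synthetases mostly did not pass the test. The difference in share was not tested. Of the 17 cytosolic synthetase genes, 14 were called higher and 0 lower, with a median change of 0.80. Of the 49 initiation factor genes, 21 were called higher and 3 lower, with a median of 0.31. Of the 12 mitochondrial synthetase genes, 1 was called higher and 0 lower, with a median of 0.14 and 2 at an unadjusted p under 0.05, which is 16.7% beside 31% of all genes. Among all genes 12.9% were called higher and 5.31% lower, and the median was 0.0046. Because 70 of the 78 genes lie among the 6719 genes with the higher mean level, these brighter genes are a closer comparison: 21.9% of them were called higher and 7.95% lower, and their median was 0.15. Every ANIT rat lay above every vehicle rat for 13 cytosolic synthetases and 8 initiation factors, against 5.54% of all genes.

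**Figure D1:**
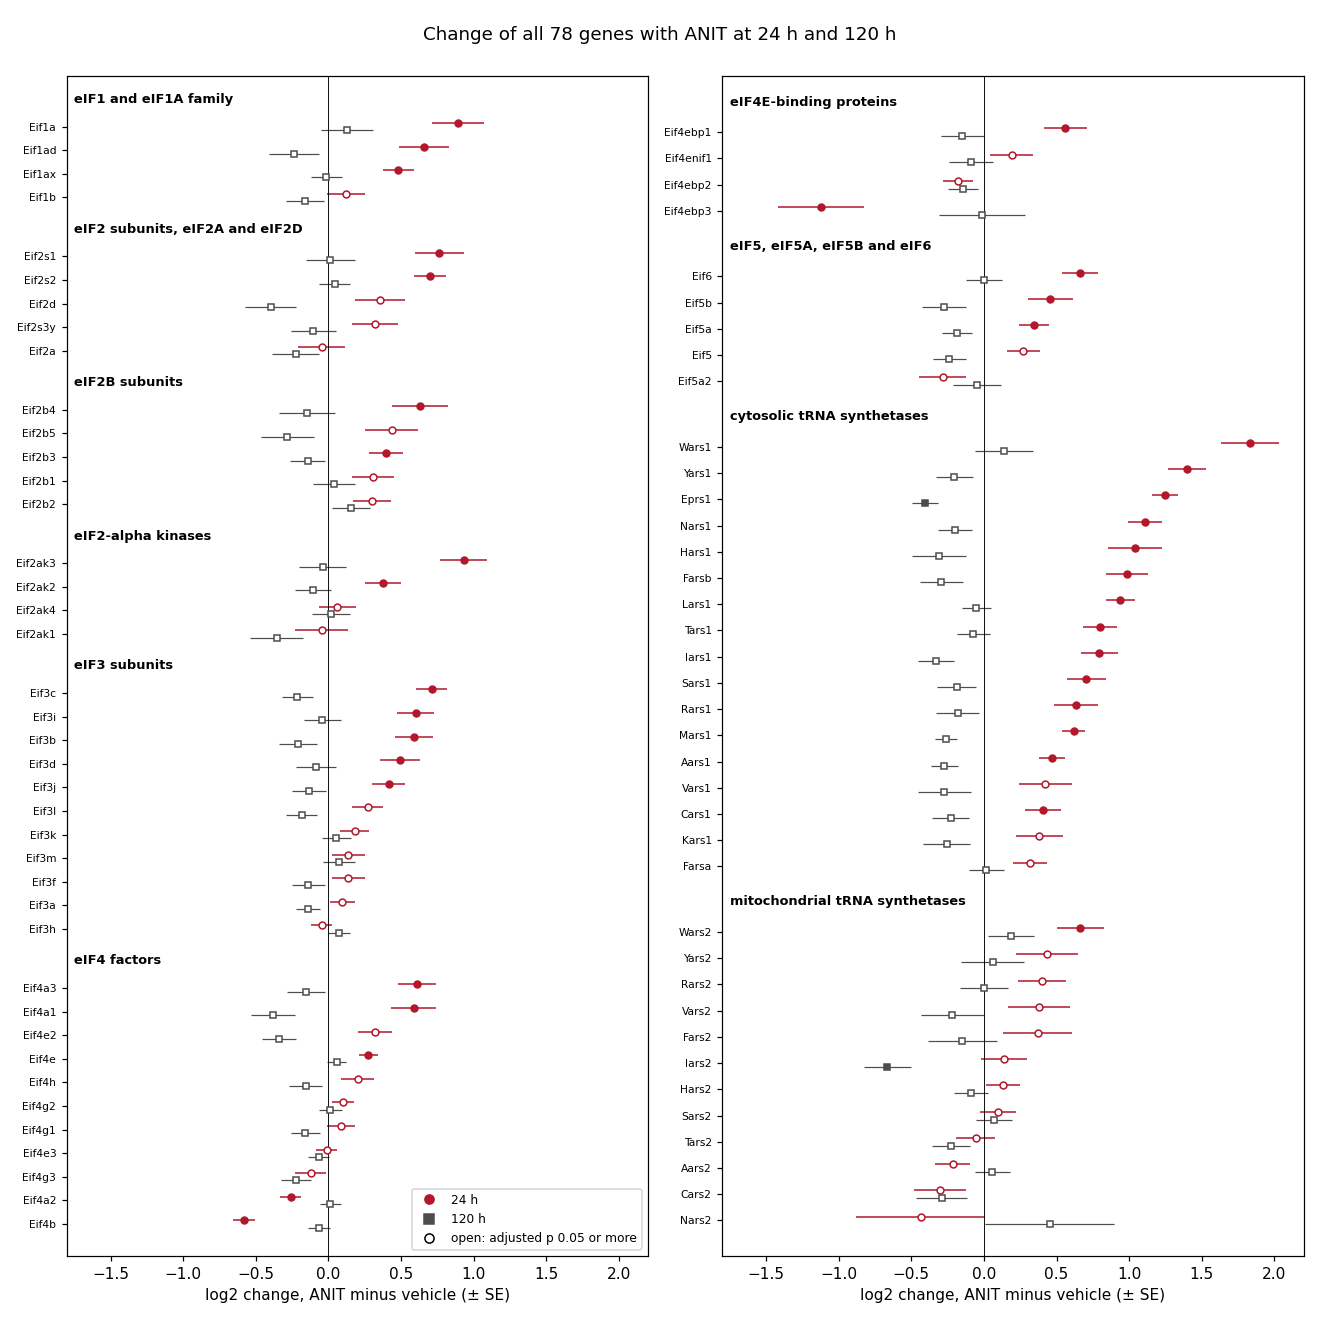
Log2 change with ANIT (ANIT minus vehicle, with its standard error, 6 and 6 arrays) of each of the 78 genes, by role, at 24 h (red circles) and 120 h (grey squares); open symbols have an adjusted p of 0.05 or more. The 24 h changes of the cytosolic synthetases all lie above 0, from 0.32 to 1.83, while those of the mitochondrial synthetases lie on both sides of it.

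Wars1, which charges tRNA with tryptophan, had the largest rise of the 78 genes. It had a lowest, median and highest value of 8.41, 8.92 and 9.57 in ANIT rats and 6.75, 7.06 and 7.67 in vehicle rats at 24 h. The groups did not overlap, and the change was 1.83 ± 0.20, a 3.56-fold difference (limma adjusted p = 3.0e-07). Its second and dimmer probe set gave 0.55. Yars1, for tyrosine, was 9.15, 9.51 and 9.86 in ANIT rats and 7.93, 8.09 and 8.29 in vehicle rats, again without overlap and 2.64-fold higher (1.40 ± 0.13, adjusted p = 2.1e-08). Eprs1, the fused enzyme for glutamate and proline and a core of the multisynthetase complex, had the smallest adjusted p of the set. It was 10.5, 10.7 and 10.8 in ANIT rats and 9.21, 9.41 and 9.65 in vehicle rats, 2.37-fold higher without overlap (1.25 ± 0.09, adjusted p = 3.3e-10). Of its other 3 probe sets, the brighter 2 gave 1.48 and 1.24 and the dimmest 0.11.

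Nars1, which charges asparagine, was 9.31, 9.48 and 9.94 in ANIT rats and 8.21, 8.47 and 8.61 in vehicle rats, 2.16-fold higher (1.11 ± 0.12, adjusted p = 2.1e-07). Lars1, for leucine, was 8.34, 8.54 and 8.86 in ANIT rats and 7.38, 7.61 and 7.82 in vehicle rats (0.94 ± 0.10, adjusted p = 2.4e-07). In both genes the lowest ANIT rat lay above the highest vehicle rat. A second, dimmer probe set of Lars1 was at 0.27. Farsb, the beta subunit of the phenylalanine enzyme, was 8.14, 8.35 and 8.85 in ANIT rats and 7.09, 7.43 and 7.77 in vehicle rats (0.99 ± 0.14, adjusted p = 1.9e-05). Tars1, for threonine, was 10.1, 10.2 and 10.5 in ANIT rats and 9.22, 9.48 and 9.66 in vehicle rats (0.80 ± 0.11, adjusted p = 1.4e-05). Mars1, which charges both initiator and elongator tRNA with methionine, was 10.6, 10.7 and 10.8 in ANIT rats and 9.90, 10.1 and 10.2 in vehicle rats. Its change was one of the smaller ones in the block and among the most even between rats, 0.62 ± 0.08 (adjusted p = 2.5e-06), and all 3 genes were without overlap.

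Aars1, for alanine, rose less: 9.65, 9.87 and 10.0 in ANIT rats and 9.22, 9.42 and 9.58 in vehicle rats (0.47 ± 0.09, adjusted p = 6.3e-04), still without overlap. Hars1 (histidine, 1.04 ± 0.18), Iars1 (isoleucine, 0.80 ± 0.13) and Sars1 (serine, 0.70 ± 0.13) rose without overlap too, and Rars1 (arginine, 0.63 ± 0.15) with overlap. Cars1, for cysteine, was called at 0.40 ± 0.12 (adjusted p = 0.024). The call on Cars1 was lost without vehicle replicate 6, ANIT replicate 1 or ANIT replicate 6 (adjusted p up to 0.083), and its groups did not overlap. Its 4 probe sets differed: the second, nearly as bright, was at 0.90, and the 2 dim ones at -0.33 and 0.29. Sars1 also had a second, dimmer probe set, at -0.22. The 3 cytosolic genes not called were Vars1 (valine, 0.42 ± 0.18, adjusted p = 0.11), Kars1 (lysine, which serves both cytosol and mitochondria, 0.38 ± 0.16, adjusted p = 0.11) and Farsa (the alpha subunit of the phenylalanine enzyme, 0.32 ± 0.12, adjusted p = 0.063). Without vehicle replicate 1 all 3 passed the test, with adjusted p values of 0.027, 0.045 and 0.018. Calls among all 13438 genes rose as well without that array, from 1738 to 2528 higher. The second probe set of Vars1, nearly as bright, was at -0.03, and the dim second one of Kars1 at -0.18.

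**Figure D2:**
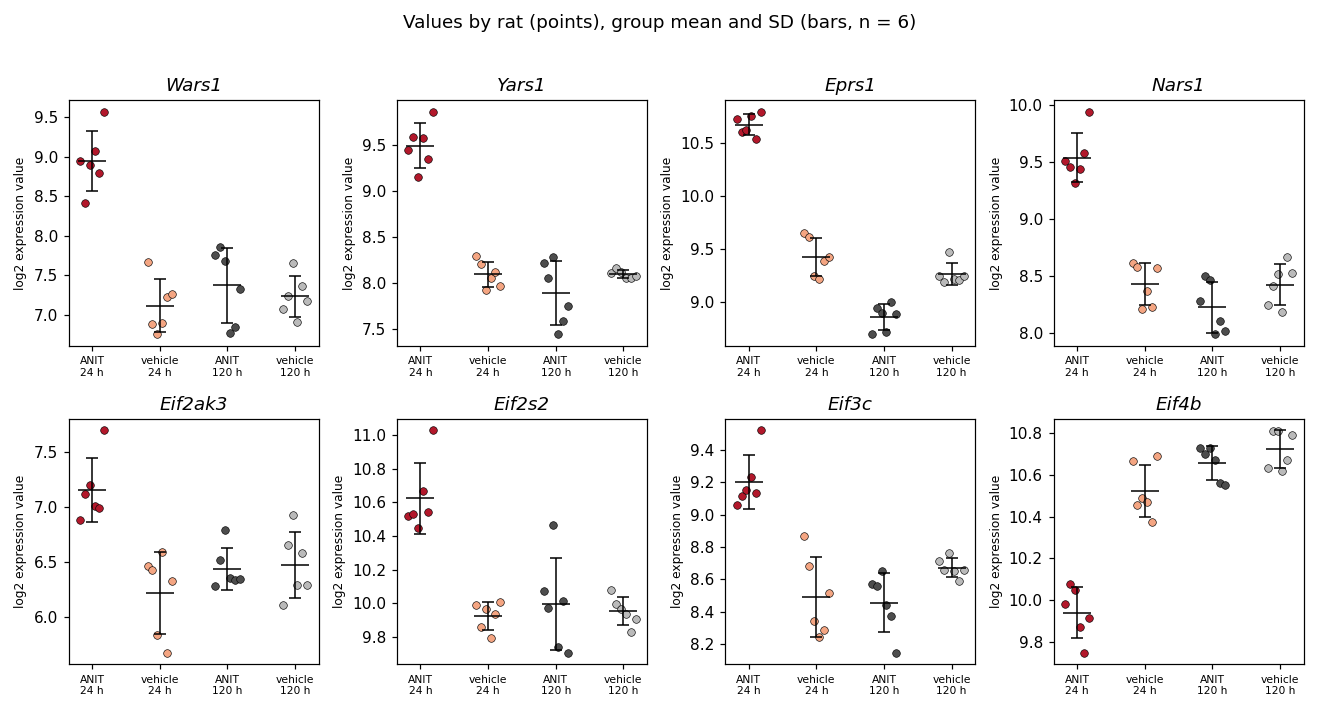
Log2 expression value of each rat (points) with group mean and SD (bars, n = 6) for 4 cytosolic synthetases and 4 initiation factor genes in the 4 groups. For Wars1, Yars1, Eprs1, Nars1, Eif2ak3, Eif2s2 and Eif3c the ANIT 24 h rats lie above all vehicle 24 h rats, and for Eif4b they lie below them.

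The promoters of several of these synthetases carry the core of the C/EBP-ATF response element, to which ATF4 binds. The matching stretches are shown so that the shared letters and their place can be seen. The 250 bases before 1 annotated start per gene were searched on both strands for TGATGNAA, in 73 of the 78 genes (RefSeq, GRCr8). It was found in 5 of 16 cytosolic synthetases, 1 of 45 initiation factors (Eif2s2) and 0 of 12 mitochondrial synthetases. Of all 33469 promoter windows 3.40% held it, and of 11089 windows of measured genes 2.08%. All 6 matches read the same 8 letters, shown in capitals with 8 bases on either side, on the strand that reads the motif.
Aars1, chr19:55908362-55908385, minus strand: ggctcggcTGATGCAAtgctcaag
Iars1, chr17:15193661-15193684, plus strand: tctggaggTGATGCAAtactgaca
Mars1, chr7:65023755-65023778, plus strand: gcccacgcTGATGCAAccggaacg
Nars1, chr18:60275781-60275804, minus strand: aggtgatcTGATGCAAcgcttcag
Tars1, chr2:62114814-62114837, plus strand: taaccagcTGATGCAAcgggacgc
Eif2s2, chr3:163855591-163855614, minus strand: cctttcgcTGATGCAAgagcctag
The match lay 7 to 14 bases before the start used in Nars1, 10 to 17 in Mars1, 17 to 24 in Iars1, 20 to 27 in Tars1, 29 to 36 in Eif2s2 and 105 to 112 in Aars1. In Aars1, Iars1, Mars1 and Eif2s2 the match with up to 45 bases on either side overlapped the annotated span of the gene. In these genes the match need not lie outside the gene. The 6 genes changed by 0.47 (Aars1) to 1.11 (Nars1) at 24 h and all were called. With or without these letters, 14 of the 17 cytosolic synthetases were called higher. Wars1, Yars1 and Eprs1, which rose most, held no such letters in the window. A second motif, CACGTG, the E-box that Myc and related factors can bind, was in 4 of 16 cytosolic synthetases (Aars1, Farsb, Iars1, Vars1), 8 of 45 initiation factors and 0 of 12 mitochondrial synthetases, against 5.59% of all windows and 7.85% of those of measured genes. Aars1 and Iars1 held both motifs, at separate places. Of the genes with CACGTG, Aars1, Farsb, Iars1, Eif3b, Eif4e and Eif5a were called higher at 24 h. Vars1, Eif1b, Eif3f, Eif4g1, Eif4h and Eif5a2 were not called. Whether either motif went with the changes was not tested. A match describes letters and does not show that a factor binds.

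The mitochondrial synthetases had smaller differences, of both signs. Wars2, for tryptophan, was the 1 gene called, with 6.53, 6.62 and 6.98 in ANIT rats and 5.72, 5.99 and 6.67 in vehicle rats, which overlapped (0.66 ± 0.16, adjusted p = 0.0043). The other 11 ran from -0.43 ± 0.45 (Nars2) to 0.44 ± 0.22 (Yars2), with adjusted p values of 0.096 (Rars2, 0.40 ± 0.16) and above. Without vehicle replicate 1, Rars2, Vars2 and Yars2 were called too, which made 4, and without ANIT replicate 5 Rars2 was, which made 2. Of all 13438 genes 2528 were called higher without the first array and 1747 without the second, against 1738 with all arrays. Cytosolic and mitochondrial enzymes could be paired by amino acid in 13 pairs of 12 amino acids, since Farsa and Farsb both pair with Fars2. The cytosolic change was larger in 12 of the 13 pairs. In the tryptophan pair it was 1.83 against 0.66, and in the alanine pair 0.47 against -0.21. Farsa (0.32) and Fars2 (0.37) were the exception. The mitochondrial genes were dimmer, with a mean level of 6.44 in vehicle rats of 24 h against 7.98 for the cytosolic ones. The part of signal level in this comparison was not tested.

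**Figure D3:**
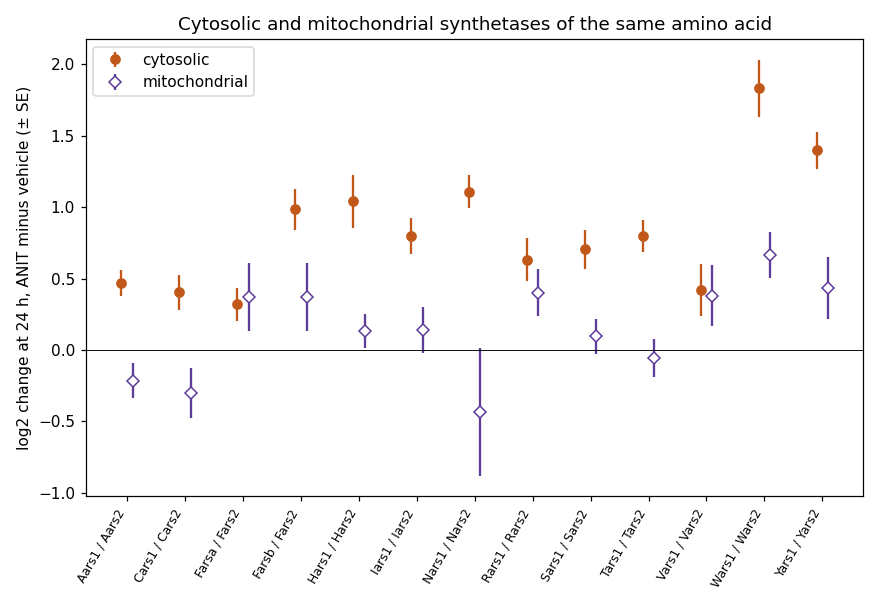
Log2 change at 24 h (ANIT minus vehicle, with its standard error, 6 and 6 arrays) of the cytosolic gene (filled) and the mitochondrial gene (open) for the same amino acid. The filled point lies higher in 12 of 13 pairs, by most in the asparagine pair (1.11 and -0.43). A second probe set of the mitochondrial Nars2, nearly as bright and not drawn, was at -0.04.

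As a summary per rat, the mean of the cytosolic synthetases minus the mean of the initiation factors was 0.31 to 0.59 in the ANIT rats of 24 h, -0.13 to -0.09 in the vehicle rats of 24 h, -0.47 to -0.23 in the ANIT rats of 120 h and -0.29 to -0.15 in the vehicle rats of 120 h. This difference of means takes out only a shift of the same size in both sets on an array. It was above 0 in the ANIT rats of 24 h and below 0 in all other rats. The place of 0 depends on the levels of the probe sets used. How much of the array differences stayed in this measure was not tested. The mean of the cytosolic minus that of the mitochondrial synthetases was 2.08 to 2.60 in the ANIT rats of 24 h and 1.46 to 1.62 in the vehicle rats of 24 h, without overlap. At 120 h it was 1.19 to 1.52 in ANIT rats and 1.39 to 1.65 in vehicle rats.

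Among the initiation factors, the genes around eIF2 and the initiator tRNA rose in part. Eif2s2, the beta subunit of eIF2, was 10.4, 10.5 and 11.03 in ANIT rats and 9.79, 9.95 and 10.0 in vehicle rats at 24 h, without overlap (0.70 ± 0.11, adjusted p = 4.6e-05). Eif2s1, the alpha subunit that the stress kinases phosphorylate, was 7.87, 8.01 and 8.27 in ANIT rats and 6.80, 7.27 and 7.94 in vehicle rats, which overlapped (0.76 ± 0.17, adjusted p = 0.0020). Eif2s3y, a gamma subunit gene, and Eif2d, a separate initiator-tRNA binding factor, were at 0.32 ± 0.16 and 0.36 ± 0.17 and not called (adjusted p = 0.17 and 0.16), and Eif2a was at -0.05. Eif1a, which acts in start codon scanning, was 9.30, 9.64 and 9.99 in ANIT rats and 7.93, 8.89 and 9.16 in vehicle rats (0.89 ± 0.18, adjusted p = 6.8e-04), without overlap. Eif1ax (0.48 ± 0.11) and Eif1ad (0.66 ± 0.17) were called higher, and Eif1b (0.12) was not.

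The 4 kinases of eIF2 alpha differed from each other in how they changed. Eif2ak3, which encodes PERK, the kinase of the endoplasmic reticulum, was 6.89, 7.07 and 7.70 in ANIT rats and 5.68, 6.38 and 6.59 in vehicle rats, without overlap and 1.91-fold higher (0.93 ± 0.16, adjusted p = 1.7e-04). Eif2ak2, the double-stranded RNA kinase PKR, was 7.67, 8.02 and 8.38 in ANIT rats and 7.38, 7.67 and 7.91 in vehicle rats (0.38 ± 0.12, adjusted p = 0.035). The call on Eif2ak2 was lost without any of 8 arrays (vehicle replicates 2 to 6, ANIT replicates 2, 4 and 6; adjusted p up to 0.11). Eif2ak4, the amino acid sensor GCN2, was 5.40, 5.66 and 5.94 in ANIT rats and 4.96, 5.63 and 5.92 in vehicle rats (0.06 ± 0.13, adjusted p = 0.78). Eif2ak1, the haem-regulated kinase HRI, was 6.41, 6.85 and 7.16 in ANIT rats and 6.33, 6.76 and 7.37 in vehicle rats (-0.04 ± 0.18, adjusted p = 0.89). The groups overlapped almost fully for Eif2ak4 and Eif2ak1. These are transcript levels and do not measure kinase activity.

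Of the 5 subunits of eIF2B, the exchange factor that reloads eIF2 with GTP, Eif2b4 (0.63 ± 0.19, adjusted p = 0.023) and Eif2b3 (0.40 ± 0.12, adjusted p = 0.021) were called higher. Both calls depended on single arrays: that on Eif2b4 was lost without vehicle replicate 3, 4 or 5 or ANIT replicate 1 or 6, and that on Eif2b3 without vehicle replicate 4 or ANIT replicate 6 (adjusted p up to 0.075 and 0.074). Eif2b5, the catalytic subunit, was 7.10, 7.61 and 7.75 in ANIT rats and 6.62, 7.02 and 7.84 in vehicle rats (0.44 ± 0.18, adjusted p = 0.10). Eif2b5 and Eif2b1 were called without vehicle replicate 1 (adjusted p = 0.013 and 0.031), a run that called 2528 of all genes higher against 1738 with all arrays. Eif2b1 (0.31) and Eif2b2 (0.30) were otherwise not called.

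In eIF3, the large scaffold on the small subunit, 5 of 11 genes were called higher and 0 lower. Eif3c was 9.06, 9.14 and 9.52 in ANIT rats and 8.25, 8.43 and 8.87 in vehicle rats, without overlap (0.71 ± 0.11, adjusted p = 2.6e-05). Eif3i was 9.84, 10.1 and 10.3 in ANIT rats and 9.22, 9.42 and 9.73 in vehicle rats, also without overlap (0.60 ± 0.13, adjusted p = 0.0014). Eif3b (0.59 ± 0.13), Eif3d (0.49 ± 0.14) and Eif3j (0.41 ± 0.11) were called as well. The subunit genes did not change by one amount: Eif3h was at -0.05 ± 0.07, Eif3a at 0.10 ± 0.08 and Eif3f at 0.14 ± 0.11, none of them called. A dimmer second probe set of Eif3a was at 0.51. Eif3l (0.27 ± 0.11) was called without vehicle replicate 1 or ANIT replicate 4 (lowest adjusted p = 0.033). These runs called 2528 and 1867 of all genes higher, against 1738 with all arrays.

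The eIF4 group, which recognises and unwinds the capped end of the mRNA, held both rises and falls. Eif4b, a cofactor of the helicase eIF4A, was the initiation factor gene with the smallest p, and it fell. It was 9.75, 9.95 and 10.1 in ANIT rats and 10.4, 10.5 and 10.7 in vehicle rats at 24 h (-0.58 ± 0.08, adjusted p = 5.7e-06), with every ANIT rat below every vehicle rat. The second helicase gene Eif4a2 was 10.5, 10.7 and 10.8 in ANIT rats and 10.8, 10.9 and 10.9 in vehicle rats, also without overlap (-0.26 ± 0.07, adjusted p = 0.012). Complete separation downward was found in 2.32% of all genes. The call on Eif4a2 was lost with arrays at a common median and with the mean of its 2 probe sets, of which the other was at 0.01.

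Its paralog Eif4a1 was called in the other direction, with 8.11, 8.49 and 8.55 in ANIT rats and 7.53, 7.82 and 8.22 in vehicle rats (0.59 ± 0.15, adjusted p = 0.0081). Eif4a3, a related helicase of the exon junction complex, was 8.98, 9.16 and 9.32 in ANIT rats and 8.04, 8.56 and 8.98 in vehicle rats (0.61 ± 0.13, adjusted p = 0.0016). The cap-binding protein gene Eif4e was 9.02, 9.11 and 9.14 in ANIT rats and 8.62, 8.84 and 8.89 in vehicle rats, a small change without overlap (0.28 ± 0.07, adjusted p = 0.0047). Its 2 dimmer probe sets gave -0.23 and -0.03. The scaffold gene Eif4g1 was 7.41, 7.75 and 7.93 in ANIT rats and 7.36, 7.63 and 7.75 in vehicle rats (0.09 ± 0.10, adjusted p = 0.57), and Eif4g2, Eif4g3, Eif4e3, Eif4h and Eif4e2, at -0.12 to 0.32, were not called either.

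The genes of the eIF4E-binding proteins, which hold eIF4E inactive, went in opposite directions. Eif4ebp1 was 7.20, 7.51 and 7.96 in ANIT rats and 6.53, 7.10 and 7.26 in vehicle rats (0.56 ± 0.15, adjusted p = 0.0090). Eif4ebp2 was 4.97, 5.47 and 5.52 in ANIT rats and 5.32, 5.56 and 5.73 in vehicle rats (-0.18 ± 0.10, adjusted p = 0.24). Eif4ebp3 had the largest fall of the 78 genes, 7.50, 7.95 and 8.40 in ANIT rats and 8.08, 9.07 and 10.3 in vehicle rats (-1.12 ± 0.30, adjusted p = 0.0088). All 3 pairs of groups overlapped, and the vehicle rats were widely spread for Eif4ebp3. Eif4enif1, the eIF4E transporter gene, was at 0.19 ± 0.15.

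Among the late factors, Eif6, which keeps the large ribosomal subunit from joining too early, was 9.21, 9.42 and 9.83 in ANIT rats and 8.59, 8.79 and 8.98 in vehicle rats, without overlap (0.66 ± 0.12, adjusted p = 3.6e-04). Eif5b, which joins the subunits (0.46 ± 0.15, adjusted p = 0.040), and Eif5a, which helps the ribosome through difficult peptide bonds (0.34 ± 0.10, adjusted p = 0.021), were called with less margin. Eif5b lost its call without any of 9 arrays of 24 h (all but vehicle replicates 1 and 6 and ANIT replicate 4; adjusted p up to 0.10), and its other 2 probe sets were at 0.09 and -0.01. Eif5a lost its call without vehicle replicate 3 or ANIT replicate 1 or 3 (adjusted p up to 0.061). Eif5, which triggers GTP hydrolysis on eIF2 (0.27 ± 0.11), and the dim Eif5a2 (-0.28 ± 0.16) were not called.

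The calls at 24 h varied in how far they withstood other settings. After adjustment for the beta-actin ratio 16 of the 39 calls remained, 10 synthetases (Eprs1, Farsb, Hars1, Iars1, Lars1, Mars1, Nars1, Tars1, Wars1 and Yars1) and 6 initiation factors (Eif1a, Eif2ak3, Eif2s2, Eif3c, Eif4b and Eif6). Of all genes 3.44% were called higher and 3.31% lower with that adjustment. The same 16 were called in every alternative run. With the GAPDH ratio as covariate instead, chosen after seeing the data, 36 of the 39 remained, beside 12.5% and 4.2% of all genes. With the spiked control level in the model 34 remained, beside 9.62% of all genes higher and 10.5% lower, and the medians were 0.61 for the cytosolic synthetases, 0.12 for the initiation factors and 0.07 for the mitochondrial synthetases. Without the 6 arrays of least spread, an alternative chosen after seeing the data, 25 remained, beside 6.11% higher and 5.45% lower, and the medians were 0.64, 0.16 and 0.05. The excess of higher over lower calls among all genes was thus small with the actin ratio and with the 6 arrays left out. With the control level in the model, lower calls outnumbered higher ones. The cytosolic median lay above 0.60 in all settings, and that of the initiation factors ranged from 0.12 to 0.38 while the median of all genes was at most 0.15.

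**Figure D4:**
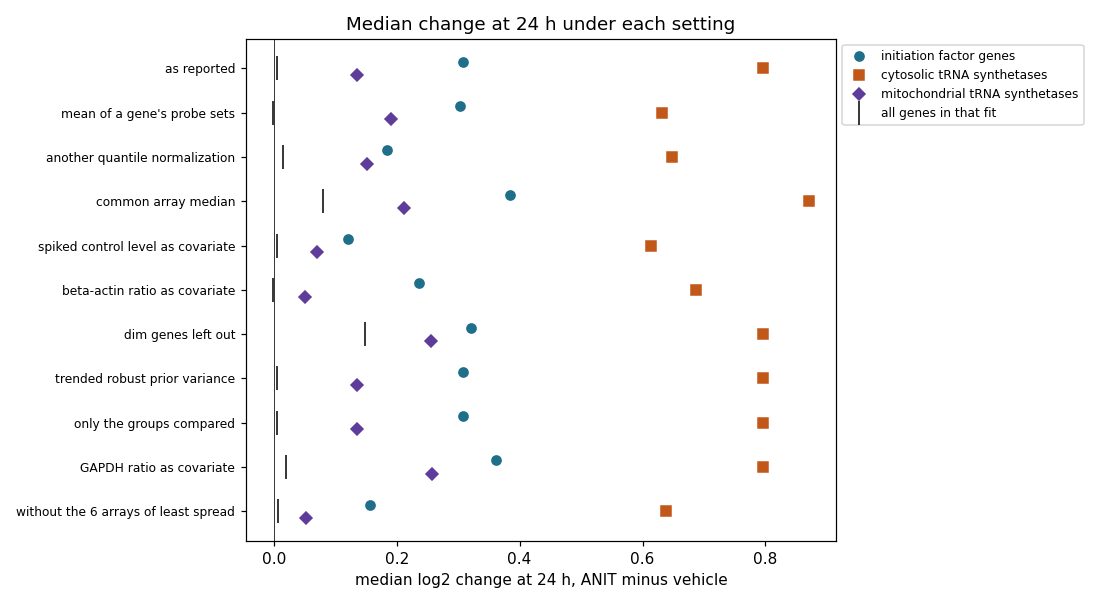
Median log2 change at 24 h (ANIT minus vehicle) of the initiation factors (circles), cytosolic synthetases (squares), mitochondrial synthetases (diamonds) and all genes in the fit (bars) under each processing setting. The cytosolic median is the highest of the 4 in each setting, at 0.61 to 0.87.

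The next lists of protein synthesis genes are read beside the 12.9% of all genes and 21.9% of the brighter genes called higher at 24 h. Of 12 partner genes of the synthetases (multisynthetase scaffold, tRNA amidation and selenocysteine genes, and synthetases outside the symbol rule), 2 (16.7%) were called higher and 0 lower at 24 h, with a median of 0.19: Aimp2, a scaffold protein of the complex (0.75 ± 0.16), and Tars3, a further threonine enzyme (0.66 ± 0.21). Sepsecs, which makes selenocysteinyl-tRNA, was at -0.20 and not called. Of 15 elongation and termination genes, 4 (26.7%) were called higher and 0 lower, with a median of 0.14, and the largest of these changes was 0.42 ± 0.08 for Abce1, the ribosome recycling factor. Eef1g (0.30) and Gspt1 (0.26) were also called.

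Larger shares than for the partner and elongation genes were called in the lists of the integrated stress response and of the unfolded protein response. The same holds for the lists of Myc and ribosome biogenesis and of further translation control genes given below. Of 32 genes of the integrated stress response, 14 (43.8%) were called higher and 0 lower at 24 h, with a median of 0.43. Asns, asparagine synthetase, rose by 2.60 ± 0.23, Psat1, of serine synthesis, by 2.25 ± 0.25, and Atf4 itself by 1.03 ± 0.11 (adjusted p = 1.7e-07). Trib3, a target with a pseudokinase product, was called at the margin (0.74 ± 0.26, adjusted p = 0.0495), and Ddit3, which encodes CHOP, was not (0.33 ± 0.16, adjusted p = 0.16). Of 18 genes of the unfolded protein response of the endoplasmic reticulum, 14 (77.8%) were called higher and 0 lower, with a median of 0.80. The list was led by Creld2 (2.57 ± 0.18), Dnajb11 (1.19 ± 0.09) and Hyou1 (1.92 ± 0.14), all of which act in protein folding there. Earlier results of these data were known when these lists were drawn up.

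The mTORC1 list had shares of calls near those of all genes. Of 15 mTORC1 pathway genes 2 were called higher and 1 lower, or 13.3% and 6.67%, with a median of 0.06: Rheb, the activating GTPase (0.27), and Rps6kb1, the S6 kinase (0.31), rose, and Pdcd4, an inhibitor of eIF4A, fell by 0.53 (SE 0.10, adjusted p = 4.0e-04). Of 18 genes of Myc and ribosome biogenesis 8 (44.4%) were called higher and 0 lower, with a median of 0.23. The 8 included the nucleolar genes Nop58 (0.82 ± 0.18), Fbl (0.79 ± 0.17) and Bop1 (0.89 ± 0.22) and Myc (0.77 ± 0.26, adjusted p = 0.039). Of 13 further genes of translation control 7 (53.8%) were called higher and 0 lower, with a median of 0.27. Dhx29, a helicase of initiation, rose by 1.22 ± 0.19, Mknk2, a kinase of eIF4E, by 0.69 ± 0.16 and Abcf1, a partner of eIF2, by 0.66 ± 0.19.

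At 120 h no initiation factor gene was called and 2 synthetases were lower. Eprs1, the top riser of 24 h by p, was 8.69, 8.89 and 9.0 in ANIT rats and 9.19, 9.23 and 9.47 in vehicle rats, with every ANIT rat below every vehicle rat (-0.41 ± 0.09, limma adjusted p = 0.013). The call was lost with the mean of its 4 probe sets (-0.29, adjusted p = 0.10). Iars2, the mitochondrial isoleucine enzyme, was 5.68, 6.01 and 6.30 in ANIT rats and 6.23, 6.72 and 7.13 in vehicle rats (-0.66 ± 0.16, adjusted p = 0.028). The groups overlapped at 1 end, and the call was lost without vehicle replicate 1, 3 or 5 or ANIT replicate 4, 5 or 6 (adjusted p up to 0.085). Among all genes 0.513% were called higher and 1.51% lower, 2.02% in all, and among the brighter genes 0.551% and 2.80%. The 2 of 78 (2.56%) called lower lie near the share of the brighter genes.

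Median changes at 120 h were -0.13 for the initiation factors and -0.20 for the synthetases, against -0.0059 for all genes and -0.09 for the brighter genes. At an unadjusted p under 0.05, 5 of the 49 initiation factors and 5 of the 29 synthetases were lower and 0 were higher, which is 12.8% of the 78 beside 13.9% of all genes in either direction (1227 lower and 638 higher). The limma fit with a trended robust prior variance also called 0 initiation factors. Aars1 was 8.75, 9.08 and 9.24 in ANIT rats and 9.26, 9.32 and 9.47 in vehicle rats, without overlap but not called (-0.27 ± 0.09, adjusted p = 0.14). Complete separation downward at 120 h was found in 1.58% of all genes. Mars1 was 9.67, 9.88 and 10.1 in ANIT rats and 10.1, 10.1 and 10.2 in vehicle rats (-0.26 ± 0.08, adjusted p = 0.086), and it was called without ANIT replicate 2 (adjusted p = 0.038). The 4 initiation factors with the smallest p were all lower and not called: Eif4e2, a cap-binding repressor (-0.34 ± 0.12, adjusted p = 0.16), Eif4a1 (-0.38 ± 0.15, adjusted p = 0.24), Eif2d (-0.40 ± 0.17, adjusted p = 0.29) and Eif4g3 (-0.22 ± 0.11, adjusted p = 0.34).

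These small negative medians moved with the arrays of least spread. Of the 6 arrays of least spread, 3 were ANIT rats of 120 h (replicates 4, 5 and 6) and 3 were vehicle rats of 24 h (replicates 3, 4 and 5). Without them the 120 h medians were 0.053 for the initiation factors and 0.027 for the synthetases, and 0.037 for the cytosolic synthetases, which had been at -0.23. Eprs1 was still called lower at 120 h without them.

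The ANIT effect differed between the times, tested as an interaction of the same fit (effect at 120 h minus effect at 24 h, so that it uses the arrays of both comparisons above). Of the 17 cytosolic synthetases 14 had an effect that was lower at 120 h, with a median difference of -0.89, as had 22 of the 49 initiation factors (median -0.46) and 1 of the 12 mitochondrial synthetases (Iars2, -0.80 ± 0.23). Among all genes 11% were called lower and 3.33% higher in this contrast, and among the brighter genes 19.5% and 4.21%. Of the 78, Eif4b was the 1 gene called higher (0.52 ± 0.11, adjusted p = 0.0024). The largest differences were those of Wars1 (-1.70 ± 0.28), Eprs1 (-1.65 ± 0.12), Yars1 (-1.60 ± 0.18) and Hars1 (-1.35 ± 0.26), and Eif3c had the smallest p of the initiation factors (-0.93 ± 0.15, adjusted p = 1.8e-04).

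The interaction calls of the initiation factors were less even than those of the synthetases. The count of 22 fell to 12 without ANIT 24 h replicate 6, to 13 without ANIT 120 h replicate 4, and to 14 without ANIT 120 h replicate 5, vehicle 24 h replicate 3 or vehicle 120 h replicate 3. It was 1 without the 6 arrays of least spread, 1 after adjustment for the beta-actin ratio and 11 after adjustment for the control level. Of all genes 2.5%, 1.82% and 6.9% were called lower in these 3 settings. A count of 1 among 49 genes lies near the first 2 of these shares. The count of cytosolic and mitochondrial synthetases together was 15 to 19 when single arrays were left out and 9 after adjustment for the beta-actin ratio.

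Between the vehicle groups, 120 h minus 24 h, limma called 0 of the 78 genes, and 1 gene (0.00744%) among all. At an unadjusted p under 0.05, 11 of the 78 were higher and 0 lower at 120 h. This is 14.1% beside 12.2% of all genes in either direction (1170 higher and 469 lower of 13438). Of these 11, 10 were initiation factors, which is 20.4% of the 49. Eif4ebp3 was 9.42, 10.2 and 11.5 in vehicle rats of 120 h and 8.08, 9.07 and 10.3 in vehicle rats of 24 h (1.24 ± 0.30, adjusted p = 0.13), and it was called without vehicle 24 h replicate 1 (adjusted p = 0.016). Without that array 154 of all 13438 genes were called higher and 21 lower between the vehicle groups. Eif4a2 was 11.1, 11.1 and 11.2 at 120 h and 10.8, 10.9 and 10.9 at 24 h (0.24 ± 0.07, adjusted p = 0.24). The 24 h vehicle rats are also the ones that ANIT was compared with at 24 h.

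Within groups, the genes whose pattern was most like the mean of the cytosolic synthetases, by Pearson r over 24 arrays after group means were removed, were Magoh (0.92), Uty, Stx5, Fbl and Psma3 (0.91 each). The arrays also share the spread described above, so these values describe how genes varied together and no more.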

How the data were processed

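Liver RNA of 24 rats was measured on 24 one-colour arrays. The authors deposited 1 log2 value for each probe set and array. RMA and Partek are named, per the submitters' processing notes. Their versions were not given in the sources used here. Deposited values were used unchanged. Of 31139 probe sets, 19068 named 1 gene, 573 several and 11498 no listed gene, by the platform annotation with symbols updated through RefSeq gene tables (79 kept the annotation's own symbol). For the genes described, 119 probe sets were available and 33 genes had several; 11 probe sets that also name another gene were left out.

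limma 3.58.1 was fitted across all 13438 genes, with 1 mean for each of the 4 groups, in R 4.3.3 (lmFit and eBayes), with Benjamini-Hochberg adjustment over all genes. Lists were described by counts and medians and not tested. Figures and summaries used Python 3.11.15, pandas 2.3.3 and matplotlib 3.10.9. The number of arrays limits the precision. The p-values rest on the spread between arrays within groups, 1 rat each, which holds differences between rats and between arrays together. Values in all groups are given for the 8 genes of each subgroup with the smallest p at 24 h, the 4 at 120 h, up to 4 of the interaction or vehicle comparison, and a fixed set of regulators. Of each pathway list the 3 genes with the smallest p are named, with Atf4, Ddit3, Asns, Trib3 and Myc. The genes, lists and tests were chosen with earlier results of these data known.

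On simulated data with 13438 genes and 200 changed genes, the fit for 24 h called 51% of the genes changed by 0.5 and 93% of those changed by 1 (log2), with 11 false calls of 155, and that for 120 h 49% and 85%, with 14 of 148. The simulated noise was independent between genes. It held none of the array differences that these genes shared in the real data, so the figures do not cover errors from those. Alternatives were another probe summary, another quantile normalization, a common array median, the spiked control level or the beta-actin ratio as covariate, dim genes left out, a trended robust prior variance, only the groups compared, each array left out in turn and, chosen after seeing the data, the GAPDH ratio as covariate or the 6 arrays of least spread left out.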

Additional observations from a re-analysis of the deposited data

Results flagged for a closer look

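In 22 of 312 gene and group combinations 1 rat stood apart from the other 5 of its group by Dixon's criterion, where chance alone gives about 1 in 20. Among ANIT rats of 24 h, replicate 6 was far above the others for Eif2s1 (8.27), Eif3c (9.52), Tars1 (10.5) and Vars1 (8.33), replicate 5 far below for Rars2 (6.06) and Tars2 (7.50), and replicate 4 far below for Eif4a1 (8.11). Among vehicle rats of 24 h, values far below the others were those of Eif2b3 (6.46) and Eif4e (8.62) in replicate 4, Eif4a2 (10.8) and Eif5a2 (3.42) in replicate 2, Eif4g1 (7.36) in replicate 3, Mars1 (9.90) in replicate 5 and Nars2 (4.94) in replicate 1. Among ANIT rats of 120 h, Eif4a2 (11.4) and Eif4e (9.08) in replicate 3 and Eif4g3 (8.68) in replicate 2 were far above, and Eif4ebp2 (5.08) in replicate 5 far below. Among vehicle rats of 120 h, Aars1 (9.47) in replicate 5 and Eif3h (10.9) and Eprs1 (9.47) in replicate 3 were far above, and Farsb (7.03) in replicate 2 far below.

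By the interaction test of the limma fit, the ANIT effect differed between the times in 38 of the 78 genes, beside 14.3% of all genes. Of the brighter genes 19.5% were called lower and 4.21% higher. Several of the calls below ended when 1 array was left out, such as Eif3d (any of 16 arrays) and Eif3l (any of 15). Most initiation factor calls were lost with the beta-actin ratio as covariate or without the 6 arrays of least spread. On the log2 scale, as effect at 120 h minus effect at 24 h, the difference among cytosolic synthetases was -1.70 for Wars1, -1.65 for Eprs1, -1.60 for Yars1, -1.35 for Hars1, -1.31 for Nars1, -1.28 for Farsb, -1.12 for Iars1, -0.99 for Lars1, -0.89 for Sars1, -0.88 for Mars1, -0.87 for Tars1, -0.81 for Rars1, -0.74 for Aars1 and -0.63 for Cars1. The mitochondrial Iars2 was at -0.80. Of the eIF1, eIF2 and eIF2B groups and the kinases, Eif2ak3 was at -0.97, Eif1ad at -0.89, Eif1a and Eif2d at -0.76, Eif2s1 at -0.75, Eif2s2 at -0.66, Eif2b3 at -0.54 and Eif1ax at -0.50. Of eIF3, Eif3c was at -0.93, Eif3b at -0.80, Eif3i at -0.64, Eif3d at -0.58, Eif3j at -0.55 and Eif3l at -0.46. Of the other factors, Eif4a1 was at -0.97, Eif4a3 at -0.76, Eif5b at -0.73, Eif4ebp1 at -0.71, Eif6 at -0.67, Eif4e2 at -0.66, Eif5a at -0.53 and Eif5 at -0.51, while Eif4b, at 0.52, had the opposite sign.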

How the results depend on the processing

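No paired analysis was possible because replicate numbers follow accession order and tie no rat to a rat of another group. With the spiked control level in the model, the 24 h median of the initiation factors was 0.12 with 5 called lower, 1 synthetase, a mitochondrial one, was called lower at 24 h, 2 initiation factors and 2 cytosolic synthetases were called lower at 120 h, the interaction gave 2 initiation factors higher and 11 lower with medians of -0.22 (initiation factors) and -0.49 (synthetases), and the vehicle medians were -0.013 and -0.085. With the beta-actin ratio, 5 initiation factors were called higher and 1 lower at 24 h and 0 mitochondrial synthetases higher, 1 synthetase and 0 mitochondrial ones were called lower at 120 h, and the interaction gave 0 initiation factors higher, 1 lower and 9 synthetases lower. Without the 6 arrays of least spread, chosen after seeing the data, 11 initiation factors and 0 mitochondrial synthetases were called higher at 24 h. At 120 h the medians changed sign to 0.053 (initiation factors), 0.027 (synthetases) and 0.037 (cytosolic), with 1 synthetase and 0 mitochondrial ones called lower, the interaction gave 1 initiation factor lower with medians of -0.13 and -0.42, and the vehicle median of the synthetases was -0.089. Another quantile normalization gave 3 initiation factors higher in the interaction and a median of -0.24. A common array median, which moved the all-gene interaction median by more than 0.1 (to -0.13), gave 0 initiation factors higher in the interaction, with 1 synthetase and 0 mitochondrial ones lower at 120 h. Probe set means gave an interaction median of -0.53 for the synthetases, and 1 synthetase and 0 cytosolic ones lower at 120 h. Without dim genes the 24 h synthetase median was 0.62 (25 genes left), and that setting and the trended robust variance each gave 2 initiation factors higher in the interaction (as did the GAPDH ratio, added after seeing the data) and 2 cytosolic synthetases lower at 120 h. The causes were not tested.

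With each array left out in turn, 17 to 25 initiation factors, 14 to 21 synthetases, 13 to 17 cytosolic and 1 to 4 mitochondrial ones were called higher at 24 h, and 3 initiation factors lower each time. Of all 13438 genes 1268 to 2528 were called higher at 24 h in these runs. The interaction gave 1 to 2 initiation factors higher, 12 to 25 lower, and 15 to 19 synthetases lower. At 120 h 1 to 3 synthetases, 1 to 2 cytosolic and 0 to 1 mitochondrial ones were lower, and 0 to 1 initiation factor was higher between vehicle groups. The number of arrays and, for dim genes, signal near background limit these counts.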
